A study of Rattus norvegicus with 6 samples.

Results

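Zinc finger protein genes were followed here through the chromatin around them in maturing rat islets. The members are all accessible sites (ACSs) of the ATAC-seq table whose nearest gene carries a symbol made of Zfp or Znf and a number. They came to 1262 of 101603 ACSs and to 164 of 13829 nearest genes, all of them named Zfp. The symbol is the only criterion, so zinc finger genes with other names (Klf, Zbtb, Zic) are not among them. RefSeq lists 9 of the 164 genes under another symbol, among them *Zfp161* as *Zbtb14*, *Zfp295* as *Zbtb21* and *Zfp167* as *Zkscan7*. Islet cells were taken from Sprague-Dawley rats, in the Adult group from 3 males of about 3 months and in the P10 group from pups of 3 litters at postnatal day 10. Each adult library came from a single rat and the P10 libraries from mixes of a few pups, with no treatment in either group. Male and female pups were nursed, and the sex of the pups in each mix is not given in the sources used here. The pancreas was also digested differently, with hand shaking in collagenase for P10 pups and collagenase injected into the duct for adults. Age, sex, digestion and single rats against mixed pups therefore cannot be told apart. ATAC-seq uses the Tn5 transposase, which inserts sequencing adapters into open DNA, and the deposited counts are the numbers of these integrations in each ACS. Whole islets were used, so fewer cells of a type and less open chromatin per cell cannot be told apart.

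Most Zfp genes encode C2H2 zinc finger proteins, in which each finger holds a zinc ion and contacts a few bases of DNA. The largest family carries a KRAB domain, which recruits the co-repressor Trim28 and silences repeats and imprinted loci, and its genes lie in tandem clusters that arose by duplication. Other members are single genes with BTB domains or long finger arrays that act in development, and a few, such as *Zfp36*, have CCCH fingers that bind mRNA instead of DNA. An ACS at a gene start marks the promoter, whereas an ACS far away is only labelled by its nearest gene and need not act on it.

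In all, 6 Zfp genes had an ACS within 1 kb of the start that differed between the ages. The called ACS overlapped the start at 5 of them, and promoters of these are shown because the difference lay at the start itself. RefSeq promoter sequences of the GRCr8 assembly were matched for *Zfp167*, higher in adults, and for *Zfp40* and *Zfp91*, lower in adults. No entry was matched for *Zfp189* and *Zfp518a*. Each line gives the 150 bases before the annotated start, read in the direction of the gene. Capitals mark matches to the GC box (GGGCGG) or the ETS site (CCGGAAG) on either strand. The windows are chr8:131379534-131379683 on the plus strand, chr1:71658767-71658916 on the minus strand and chr1:219352419-219352568 on the minus strand, in that order.
Zfp167: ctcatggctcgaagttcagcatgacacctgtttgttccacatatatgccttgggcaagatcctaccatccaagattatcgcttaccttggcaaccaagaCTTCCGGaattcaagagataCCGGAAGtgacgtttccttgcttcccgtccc
Zfp40: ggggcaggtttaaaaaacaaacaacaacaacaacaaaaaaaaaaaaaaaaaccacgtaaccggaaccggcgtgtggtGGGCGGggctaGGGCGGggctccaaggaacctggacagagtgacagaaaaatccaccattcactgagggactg
Zfp91: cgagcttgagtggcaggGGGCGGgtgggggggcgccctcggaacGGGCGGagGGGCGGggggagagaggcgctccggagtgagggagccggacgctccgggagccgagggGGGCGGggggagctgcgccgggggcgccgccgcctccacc

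The 3 windows differed in composition, from 48.7% G and C in *Zfp167* and 49.3% in *Zfp40* to 82% in *Zfp91*. *Zfp91* held 4 GC boxes, *Zfp40* held 2, and *Zfp167* held none but had 2 ETS sites. The 9 motifs named here were searched on both strands in the 300-base RefSeq promoters, and no motif's letters lie inside those of another. Of the member genes with a start-site ACS, 109 had a promoter entry, and 50.5% of these held the GC box, against 66.4% of 7947 promoters of all genes with a start-site ACS. The ETS site was found in 23.9% against 18.0%, CCAAT in 44.0% against 37.9% and AAGATGG, the YY1 site, in 14.7% against 8.12%. ACTACAA, the core of the site bound by Zfp143, stood in 9.17% against 4.0%. Shares were closer for TATAAA (8.26% against 6.08%), TGACGTCA (3.67% against 3.44%), TGCGCA (12.8% against 14.3%) and CACGTG (6.42% against 9.88%). The median GC content was 59.3% against 61.7%, with 18 against 21 CpG dinucleotides. These are letter matches in a newer assembly than the ACS coordinates, and no set was tested against another.

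The libraries held 7916919 to 11903909 integrations in adults and 13491534 to 21168463 in P10 islets, and the median member ACS held 43 to 111 of them. Levels are given as integrations per 1000000 (CPM) after TMM scaling, a correction of library size by the bulk of the ACSs, and n is 3 per age throughout. A start-site ACS was found for 6 of 9 beta-cell and 3 of 4 alpha-cell markers. The same held for 3 of 4 duct-cell and 3 of 4 stromal-cell markers, so these counts do not single out islet cells. The beta-cell markers *Mafa* and *G6pc2* were the nearest gene of no ACS. Of the 6 beta-cell start-site ACSs, 2 were called lower in adults and none higher. Summed start-site CPM did not overlap between the ages for delta cells (11.6 to 13.7 in adults, 17.6 to 25.6 in P10, 2 of 2 markers), acinar cells (4.34 to 6.52 and 7.08 to 8.49, 2 of 7 markers) and duct cells (17.5 to 20.2 and 24.7 to 34.4, 3 of 4 markers). It overlapped for beta cells (163 to 225 and 208 to 339), alpha cells (54.4 to 71.8 and 57.2 to 70.4), endothelial cells (23.5 to 31.7 and 28.9 to 35.5) and stromal cells (12.3 to 16.5 and 16.5 to 21.1). No immune marker had a start-site ACS. The part of these cell-type markers in the results below was not tested.

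Between P10 and adult islets, 130 of the 1262 Zfp ACSs were called higher in adults (Up, 10.3%) and 63 lower (Down, 4.99%), with edgeR's quasi-likelihood test at p under 0.05 and FDR under 0.2. Over all ACSs, 12.3% were Up and 6.63% Down, so both member shares stood somewhat under the background. The paper, also with edgeR and these limits, reported the opposite balance, with more Down than Up ACSs. The reason for this difference was not tested. The libraries of the ages did not overlap at 276 Zfp ACSs (21.9%), against 24.7% of all ACSs. The median log2 fold change, positive where adults were higher, was 0.0011 over the members and -0.0076 over all ACSs. The balance of Up and Down calls rested on the scaling: with plain column sums the members gave 107 Up and 124 Down, and all ACSs gave 10.3% Up and 10.6% Down. That scaling moved the median of all ACSs to -0.10.

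The ACSs were divided by distance to the gene start. TSS ACSs lie within 1 kb, proximal ACSs within 10 kb and distal ACSs beyond. In the TSS class, 3 of 142 members were Up and 3 Down (2.11% each), against 2.73% Up and 7.87% Down of all TSS ACSs. Proximal members gave 12 Up and 1 Down of 105 (11.4% and 0.952%), beside 11.2% and 6.71% of all proximal ACSs. Distal members gave 115 Up and 59 Down of 1015 (11.3% and 5.81%), beside 13.8% and 6.45% of all distal ACSs. Most of the calls at Zfp genes therefore fell far from the gene starts, as most of the ACSs did.

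**Figure D1:**
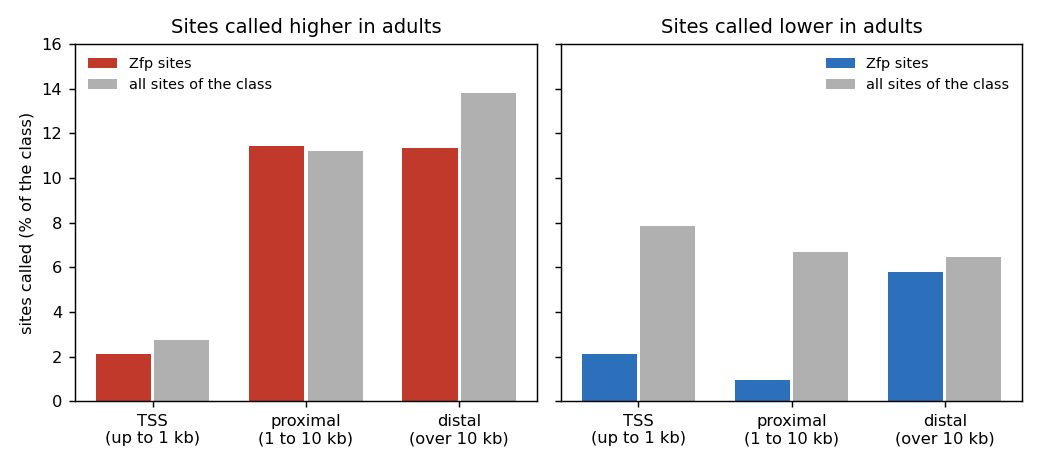
Percent of ACSs called Up (left) and Down (right) in the TSS, proximal and distal classes, for Zfp ACSs (coloured bars) and all ACSs of the class (grey bars); bars carry no error because each is a share of a fixed list. The coloured Down bars at TSS (2.11%) and proximal ACSs (0.952%) stand below the grey ones (7.87% and 6.71%), whereas column-sum scaling gave 16.9% and 17.2% at TSS.

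Of the 164 genes, 129 had a TSS ACS (78.7%, against 67.8% of all genes), and the median gene had 3 ACSs. TSS ACSs of Zfp genes were 771 bp wide at the median, against 667 bp for all TSS ACSs. Their mean level ran from 5.31 to 108 CPM per kb of ACS, with a median of 29.6 against 24.4. *Zfp53* had the highest level per length. There the adult libraries gave 91.8, 65.9 and 64.8 CPM and the P10 libraries 81.1, 83.2 and 88.9 CPM, so the ages overlapped (log2 fold change -0.18, standard error 0.16, edgeR adjusted p = 0.563). *Zfp799* followed at 99.7 CPM per kb, with 58.4 to 88.6 CPM in adults and 66.1 to 74.4 CPM in P10 islets. The lowest level per length was at the weaker of 2 TSS ACSs of *Zfp148*, at 0.361 to 1.46 CPM in adults and 0.999 to 1.53 CPM in P10 islets.

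The log2 fold changes of the 142 TSS ACSs lay between -0.71 and 0.63, and 133 of them (93.7%) were within 0.5 of 0, against 88.1% of all TSS ACSs. Of these 142 ACSs, 90 were below 0 (7248 of 11055 over all TSS ACSs), and the median of -0.10 equalled that of all TSS ACSs. With column sums, 2 were Up and 24 Down (1.41% and 16.9%, against 1.78% and 17.2% of all TSS ACSs). Among ACSs with a mean of at least 50 integrations, 2 were Up and 28 Down of 133 (1.5% and 21.1%, against 2.27% and 19.6%). The lower share of Down calls at Zfp gene starts was thus not kept under these 2 settings. It was kept with median-of-ratios size factors (2.82% against 8.81%), the DESeq2 Wald test (2.82% against 7.83%), limma voom (2.82% against 7.22%) and the filterByExpr filter (2.82% against 8.41%). Without adult replicate 4, 12 members were Down (8.45%, against 8.01% of all TSS ACSs), and without P10 replicate 2, 1 was (0.704% against 3.19%).

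**Figure D2:**
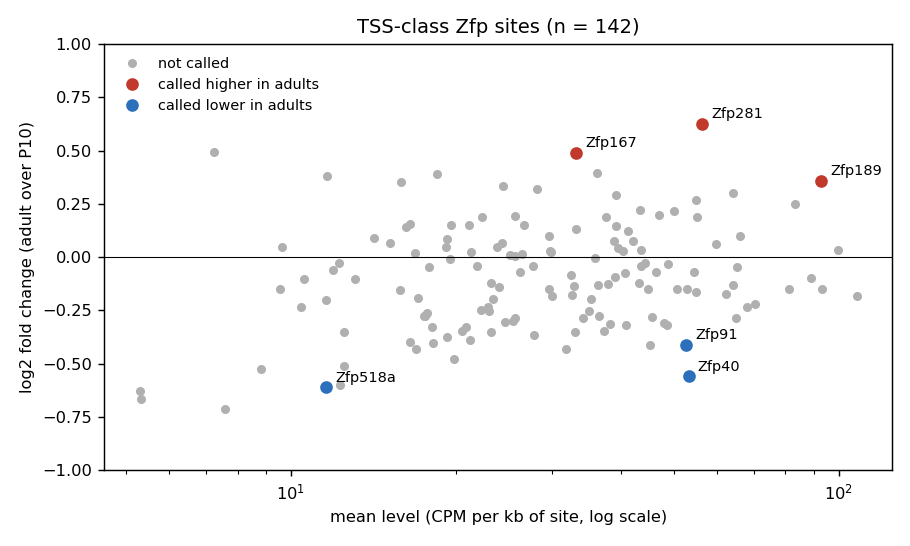
Each point is a TSS ACS of a Zfp gene (n = 142), with its mean level over 6 libraries (x, CPM per kb, log scale) and its log2 fold change, adult over P10 (y). Grey points were not called, and the 6 called ACSs are named; they lie between -0.61 and 0.63.

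*Zfp281*, which encodes an activator and repressor at GC-rich promoters known from stem cells, had the largest called rise among TSS ACSs, but not at the start itself. The ACS at chr13:58554203-58554651 (Rn5) lies upstream, and its near edge is 208 bp from the gene start. Its levels were 35.1, 29.9 and 27.1 CPM in the adult libraries and 23.8, 17.7 and 18.2 CPM in the P10 libraries. All adult libraries were above all P10 libraries, with a log2 fold change of 0.63 (standard error 0.19, edgeR adjusted p = 0.0321). The call was lost without P10 replicate 2 (adjusted p = 0.2). The weaker ACS that overlaps the *Zfp281* start, chr13:58554856-58555117, held 7.50, 5.36 and 6.70 CPM in adults and 5.81, 5.49 and 7.35 CPM in P10 islets. The ages overlapped there, and it was not called (log2 fold change 0.07, standard error 0.26, edgeR adjusted p = 0.929). *Zfp167*, a gene with KRAB and SCAN domains, held 25.7, 19.9 and 19.98 CPM in adults and 15.2, 15.7 and 15.9 CPM in P10 islets at its start (chr8:131088362-131088925). The adult libraries were again all higher, by 0.49 on the log2 scale (standard error 0.19, edgeR adjusted p = 0.125), but the call was lost without adult replicate 4 (adjusted p = 0.388), P10 replicate 2 (0.316) or P10 replicate 3 (0.249). At the start of *Zfp189*, chr5:69280204-69281230, the level was 115, 96.0 and 110 CPM in adults and 78.7, 82.5 and 89.5 CPM in P10 islets, again without overlap. The difference came to 0.36 on the log2 scale (standard error 0.14, edgeR adjusted p = 0.133), and the call held in 1 of 6 fits without a library, the one without adult replicate 5.

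*Zfp40* had the fall with the smallest p among TSS ACSs. The ACS at chr1:65363452-65364378 overlaps the start and held 42.7, 37.0 and 40.0 CPM in adults, against 54.5, 59.0 and 63.0 CPM in P10 islets. All adult libraries were lower, with a log2 fold change of -0.56 (standard error 0.16, edgeR adjusted p = 0.0213), and the call held in all 6 fits without a library. *Zfp518a* gave 9.04, 8.96 and 9.28 CPM in adults and 13.6, 15.5 and 12.7 CPM in P10 islets at chr1:267596527-267597516. The ages did not overlap there (log2 fold change -0.61, standard error 0.22, edgeR adjusted p = 0.082), and the call was lost without P10 replicate 2 (adjusted p = 0.297). *Zfp91*, whose protein is a ubiquitin ligase acting on the kinase NIK, gave 66.1, 56.6 and 47.8 CPM in adults and 67.3, 74.9 and 85.1 CPM in P10 islets at chr1:236792482-236793739. The highest adult library was just under the lowest P10 library (log2 fold change -0.41, standard error 0.16, edgeR adjusted p = 0.114). The call was lost without adult replicate 6 (adjusted p = 0.396), P10 replicate 2 (0.23) or P10 replicate 3 (0.351).

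Away from gene starts, the Up ACS with the smallest p among those without overlap was nearest to *Zfp161* (*Zbtb14*). This gene encodes a BTB zinc finger repressor first found at the *Myc* promoter. The ACS lies 98711 bp upstream of the gene, at chr9:117104607-117105216. The adult libraries gave 59.8, 52.0 and 56.2 CPM and the P10 libraries 15.99, 16.05 and 22.5 CPM. Every adult library was far above every P10 library, and the log2 fold change was 1.62 (standard error 0.18, edgeR adjusted p = 9.35e-07). Of 16 ACSs nearest to *Zfp161*, 5 were Up and none Down, beside 14.9% Up and 4.67% Down of all ACSs on chromosome 9. *Zfp703*, a co-repressor of the NET family, had an Up ACS 179557 bp upstream at chr16:69094958-69095559, with 34.1, 22.1 and 26.4 CPM in adults and 9.67, 9.34 and 10.9 CPM in P10 islets. The difference was 1.47 on the log2 scale (standard error 0.21, edgeR adjusted p = 2.71e-05), whereas the gene start itself differed little, at 68.5, 46.2 and 56.6 CPM in adults and 50.1, 56.4 and 53.6 CPM in P10 islets. *Zfp386* had an Up ACS 18151 bp upstream at chr6:152822080-152822471, where the adult libraries held 20.3, 15.97 and 17.1 CPM and the P10 libraries 5.21, 4.07 and 7.72 CPM (log2 fold change 1.65, standard error 0.25). The separation of the ages at these ACSs follows from their choice among those without overlap.

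*Zfp521*, which encodes a long-array protein that binds EBF factors and holds back lineage choices in blood, fat and neurons, supplied the other three of the 6 strongest Up ACSs. The ACS inside the gene at chr18:5230557-5230987 held 32.4, 23.1 and 30.9 CPM in adults and 11.2, 10.6 and 11.2 CPM in P10 islets (log2 fold change 1.39). Another inside the gene, chr18:5173267-5173507, had 8.13, 9.35 and 5.29 CPM in adults and 1.81, 1.57 and 2.38 CPM in P10 islets (log2 fold change 1.98). The ACS 382215 bp upstream, chr18:5666985-5667521, had 52.1, 42.8 and 44.2 CPM against 23.6, 17.0 and 21.2 CPM (log2 fold change 1.17). In each of these ACSs the lowest adult library exceeded the highest P10 library, as their choice required. Their calls held in all 6 fits without a library. In all, 11 of its 36 ACSs were Up and 2 Down, beside 19.7% Up and 4.38% Down of all ACSs on chromosome 18. Neither of its 2 TSS ACSs was called.

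The 6 strongest Down ACSs without overlap were mostly of low level. The *Zfp18* ACS, 102351 bp downstream of the gene start at chr10:52188315-52188721, held 1.72, 2.05 and 1.80 CPM in adults and 9.39, 5.63 and 5.66 CPM in P10 islets. Every adult library was lower, with a difference of -1.89 on the log2 scale (standard error 0.32, edgeR adjusted p = 0.000252). *Zfp217*, whose protein works with CtBP co-repressors and in fat cell formation, had 4.88, 10.0 and 5.54 CPM in adults and 14.0, 19.9 and 15.9 CPM in P10 islets at chr3:173118216-173118904 (log2 fold change -1.28). Adult replicate 5 stood nearest to the P10 libraries there. The *Zfp54* ACS, at chr1:63913788-63914447, was better covered, with 22.2, 22.98 and 16.2 CPM in adults and 37.2, 35.0 and 35.4 CPM in P10 islets (log2 fold change -0.80). The others lay near *Zfp295* (*Zbtb21*, log2 fold change -1.35), *Zfp458* (-1.51) and *Zfp438* (-1.34), with adult levels of 0.974 to 2.98 CPM and P10 levels of 3.58 to 6.78 CPM. All 12 of the strongest Up and Down ACSs kept their calls in each of the 6 fits without a library, though they had been chosen for their small p.

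**Figure D3:**
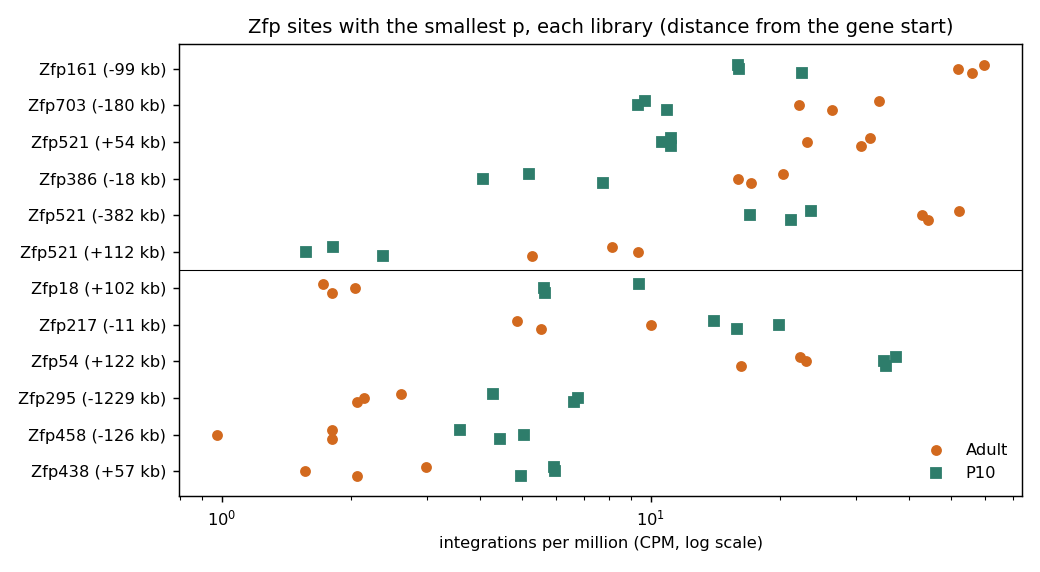
Levels of the 6 Up (above the line) and 6 Down (below it) Zfp ACSs with the smallest p among those without overlap, in CPM on a log scale; each circle is an adult and each square a P10 library, 3 per age, and the distance from the gene start is given beside the gene. Circles and squares never overlap within a row, as the choice of these ACSs requires.

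Of 164 genes, 97 had no called ACS, 28 had only Up, 19 only Down and 20 both. The same counts were not made over all genes. The 10 genes with the most ACSs held 504 of the 1262 ACSs and 88 of the 193 calls, 69 Up and 19 Down. The part of the number of ACSs per gene in these counts was not tested. *Zfp608* had the most calls, with 18 Up and none Down of 62 ACSs. They ran from 497998 bp upstream to 280633 bp downstream of the gene start, and 14 of them still passed at FDR under 0.05. The strongest, chr18:48881217-48881866, held 22.0, 15.5 and 21.3 CPM in adults and 7.62, 6.78 and 7.88 CPM in P10 islets (log2 fold change 1.4). A more open one upstream, chr18:49529799-49530428, held 65.3, 49.6 and 56.1 CPM in adults and 36.6, 27.7 and 26.9 CPM in P10 islets (log2 fold change 0.91). The adult libraries were higher at both, while the start of *Zfp608* did not separate the ages, with 9.67, 11.5 and 11.1 CPM in adults and 11.2, 10.9 and 6.98 CPM in P10 islets.

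*Zfp516*, an activator of brown fat genes, had 8 Up and 2 Down ACSs of 49. The strongest Up ACS lies 418685 bp downstream of its start, with 93.3, 73.3 and 84.3 CPM in adults and 56.4, 43.9 and 51.0 CPM in P10 islets (log2 fold change 0.73). *Zfp608*, *Zfp521*, *Zfp516* and *Zfp532* (3 Up of 14) share chromosome 18. There, 40 of 171 Zfp ACSs were Up and 5 Down, and the chromosome as a whole was also high in Up calls, with 19.7% of all its ACSs Up and 4.38% Down. Calls went both ways within other genes. *Zfp385b*, a relative of a p53-binding zinc finger gene, had 5 Up and 5 Down of 34 ACSs. *Zfp295*, with 118 ACSs the gene with the most, had 5 Up and 4 Down, and its ACSs reached 1972494 bp from the gene. Its 9 calls became 4 without P10 replicate 2, 6 without adult replicate 6 or P10 replicate 3, and 13 without adult replicate 5. *Zfp217* had 2 Up and 4 Down of 44. At *Zfp219*, all 3 Up ACSs of 7 were proximal, from 2123 to 5442 bp upstream of the start, and rose by 0.69 to 1.01 on the log2 scale. However, 6 of its 7 ACSs were proximal, and *Zfp385b* had a proximal Up ACS too.

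*Zfp458*, a KRAB gene on chromosome 2, had 7 Down and no Up ACS of 23, beside 7.07% Down and 12.6% Up of all ACSs there. The Down ACSs lie 125673 to 789499 bp upstream of its start. At the best covered, chr2:105864149-105864664, the adult libraries held 18.3, 13.05 and 14.6 CPM and the P10 libraries 24.1, 30.2 and 26.4 CPM. The ages did not overlap there (log2 fold change -0.81, standard error 0.20, edgeR adjusted p = 0.00764). The median over its 23 ACSs was -0.35 on the log2 scale. By library, as log2 of CPM + 0.5 relative to the P10 mean, the medians overlapped between the ages. They were -0.19, -0.35 and -0.38 in adult replicates 4, 5 and 6 and -0.20, 0.13 and 0.16 in P10 replicates 1, 2 and 3. The *Zfp458* calls fell to 4 without P10 replicate 2 and to 3 without P10 replicate 3. With its neighbour *Zfp455*, the pair had 9 Down and no Up of 29 ACSs.

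**Figure D4:**
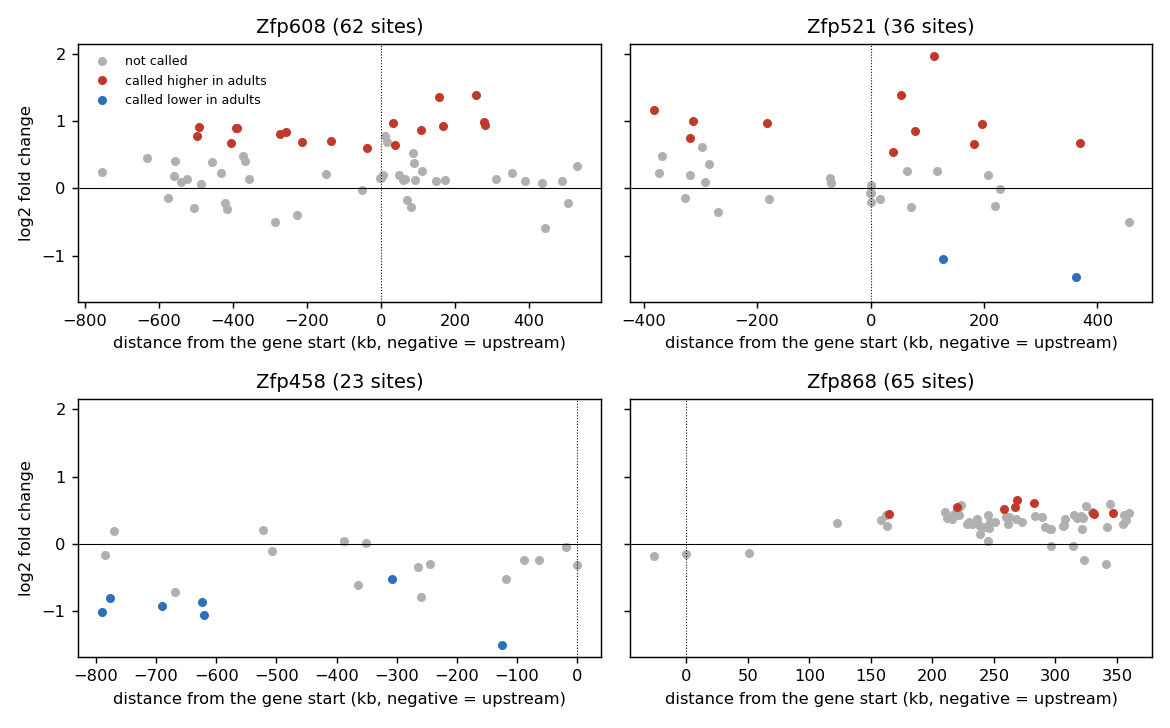
Log2 fold change (adult over P10, y) of each ACS nearest to *Zfp608*, *Zfp521*, *Zfp458* and *Zfp868*, against its distance from the gene start in kb (x, negative upstream, own range in each panel). Called Up ACSs are red, Down blue and others grey; *Zfp608* has 18 Up ACSs on both sides of its start, *Zfp458* has 7 Down ACSs upstream, and the *Zfp868* points form a flat band near the median of 0.37.

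At *Zfp868*, the 9 Up calls of 65 ACSs rest on which adult libraries are read. The 3 ACSs nearest to the gene, from 26544 bp upstream to 50617 bp downstream of its start, had median levels of 0.08, -0.11 and -0.45 in adult replicates 4, 5 and 6, as log2 of CPM + 0.5 relative to the P10 mean. Beyond them, 62 ACSs between 122136 and 359567 bp from the start stood at -0.16 in adult replicate 4 but at 0.64 and 0.49 in adult replicates 5 and 6. The P10 libraries were at -0.15, 0.11 and 0.03 there. At 56 of the 62, both adult replicates 5 and 6 were above all P10 libraries, while adult replicate 4 was so at 5. The SD over these ACSs was 0.20 to 0.27, against 0.55 to 0.63 over all distal ACSs, so the band was narrow. The 89 ACSs nearest to the next gene, *Lzts1*, had similar values of -0.19, 0.60 and 0.46 in the adult libraries. The number of *Zfp868* calls was 41 without adult replicate 4, 0 without adult replicate 5 or P10 replicate 1, 2 without adult replicate 6 or P10 replicate 3, and 3 without P10 replicate 2. A difference between the ages at *Zfp868* thus cannot be told apart from a difference between single rats. Without its 65 ACSs, the members had 121 Up and 63 Down of 1197.

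**Figure D5:**
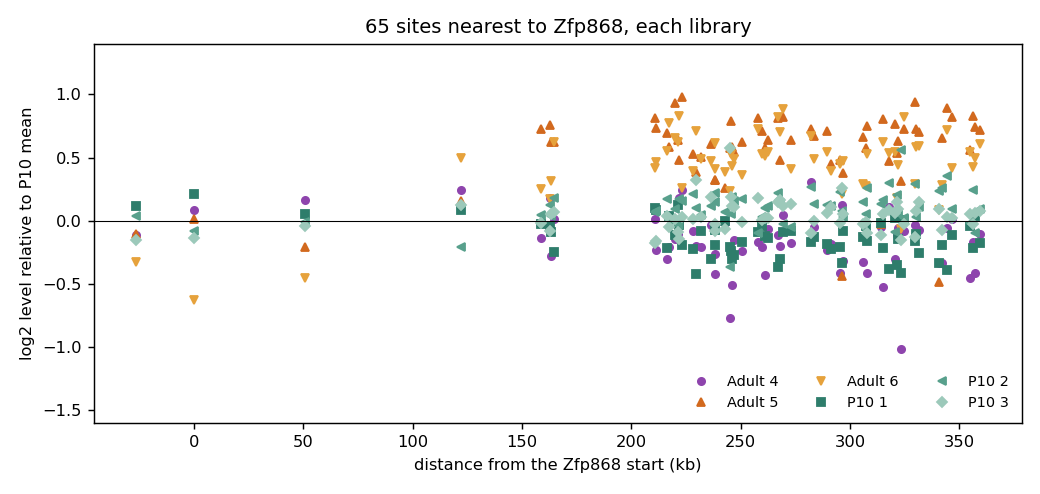
Level of each of the 65 ACSs nearest to *Zfp868* in each of the 6 libraries (y, log2 of CPM + 0.5 relative to the mean of the 3 P10 libraries) against the distance from the gene start (x, kb). Among the 62 ACSs to the right of the first 3, adult replicates 5 and 6 (upward and downward triangles) form a band around 0.64 and 0.49, while adult replicate 4 (circles, median -0.16) lies among the P10 libraries.

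Zfp genes with another member gene within 500 kb (72 genes, 292 ACSs) were read as clustered genes. This division was made after the values had been seen and carries no test. These genes had 6 Up and 20 Down ACSs, and the 92 other genes had 124 Up and 43 Down of 970. Among distal ACSs alone, the clustered genes had 4 Up and 20 Down of 183 (2.19% and 10.9%), and the others 111 Up and 39 Down of 832 (13.3% and 4.69%), beside 13.8% and 6.45% of all distal ACSs. Many clustered genes lie on chromosomes 1 and 10, where 8.24% and 4.48% of all ACSs were Up and 8.16% and 9.36% Down, and the part of the chromosome in the counts was not tested. The median log2 fold change of distal ACSs was -0.12 for the clustered genes and 0.08 for the others. The clustered distal ACSs stood below the P10 mean in all 3 adult libraries, by medians of -0.06, -0.14 and -0.21. However, P10 replicate 1 was as low as adult replicate 4, at -0.06. The distal ACSs of the other genes, among them those of *Zfp868*, had medians of -0.05, 0.13 and 0.095 in adult replicates 4, 5 and 6. Their P10 medians were -0.03, 0.02 and 0.01, so adult replicate 4 was not raised there. Of the 20 Down ACSs, 9 belong to the *Zfp458* and *Zfp455* pair, and 2 to *Zfp52*, next to *Zfp53* on chromosome 1. At the stronger of these, chr1:62560663-62561385, levels were 54.8, 42.5 and 45.4 CPM in adults and 61.8, 77.3 and 78.9 CPM in P10 islets (log2 fold change -0.61, edgeR adjusted p = 0.0139). Of the groups with the most genes, the 8 genes around *Zfp746* on chromosome 4 had 1 Up and 1 Down of 32 ACSs, the 7 genes around *Zfp61* on chromosome 1 had 1 Up of 17, and the 6 genes around *Zfp799* on chromosome 7 had 1 Down of 23. At gene starts, 1 of 69 TSS ACSs of clustered genes was called, that of *Zfp167*, and this call held in 3 of 6 fits without a library. The other genes had 2 Up and 3 Down of 73, beside 2.73% Up and 7.87% Down of all TSS ACSs. As given above, the low share of Down calls at Zfp gene starts was not kept with column sums or the mean filter. Without P10 replicate 2, the clustered distal ACSs had 2 Up and 10 Down, and the same counts were found without P10 replicate 3. Calls over all ACSs fell as well, from 12.3% Up and 6.63% Down with all libraries. They were 7.85% and 3.23% without P10 replicate 2 and 8.77% and 4.17% without P10 replicate 3.

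The lists of genes by role are read against the 12.3% Up and 6.63% Down of all ACSs, and none was tested against the rest. The CCCH factors *Zfp36* and *Zfp36l1*, which speed the decay of AU-rich mRNAs, had 1 Up and 1 Down of 22 ACSs (4.55% each). The Up ACS lies 9317 bp past the start of *Zfp36l1*, with 38.2, 31.0 and 35.6 CPM in adults and 17.1, 22.2 and 19.9 CPM in P10 islets, a clear separation (log2 fold change 0.83, standard error 0.18, edgeR adjusted p = 0.00307). At the *Zfp36* start the ages overlapped, at 16.3, 13.5 and 7.09 CPM in adults and 22.5, 15.0 and 12.7 CPM in P10 islets. The EBF-binding pair *Zfp423* and *Zfp521* had 12 Up and 2 Down of 45 (26.7% and 4.44%), of which *Zfp423* gave 1 Up of 9. The NET co-repressors *Zfp503* and *Zfp703* had 4 Up (33.3%) and none Down of 12, none of them at a gene start. Neural and developmental genes (*Zfp238*, *Zfp385a*, *Zfp385b*, *Zfp385d*, *Zfp608*, *Zfp609*) had 27 Up and 7 Down of 135 (20% and 5.19%), and 18 of the Up ACSs were those of *Zfp608*.

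Promoter-binding factors (*Zfp143*, *Zfp148*, *Zfp219*, *Zfp281*, *Zfp384*, *Zfp410*) had 6 Up (12%, near the share of all ACSs) and none Down of 50 ACSs, and 5 of the 6 were outside the TSS class. *Zfp143*, an activator of many housekeeping promoters, had lower adult levels at its start without overlap, at 50.2, 42.8 and 47.1 CPM in adults and 59.2, 62.1 and 52.7 CPM in P10 islets, but did not pass the test (log2 fold change -0.31, standard error 0.16, edgeR adjusted p = 0.249). *Zfp410*, which drives the chromatin remodeller gene *Chd4*, gave 14.3, 17.2 and 14.7 CPM and 25.9, 19.3 and 15.9 CPM, with overlap (edgeR adjusted p = 0.275). Genes linked to metabolism or islets (*Zfp217*, *Zfp292*, *Zfp395*, *Zfp467*, *Zfp516*, *Zfp746*, *Zfp800*) had 11 Up and 7 Down of 120 (9.17% and 5.83%), near the shares of all ACSs. *Zfp800*, which lies in a region tied to type 2 diabetes, held 47.7, 44.4 and 48.9 CPM at its start in adults and 55.6, 53.9 and 45.5 CPM in P10 islets, and the ages overlapped (edgeR adjusted p = 0.691). *Zfp746*, a repressor of the PGC-1α gene, was level too, at 41.3 to 45.7 CPM in adults and 45.0 to 45.9 CPM in P10 islets.

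Factors of RNA, ribosomes and the spindle (*Zfp346*, *Zfp365*, *Zfp598*, *Zfp622*, *Zfp638*) had 5 Up and 3 Down of 30 ACSs (16.7% and 10%), none at a gene start. *Zfp598*, which marks collided ribosomes, overlapped between the ages at its start, with 9.54 to 18.0 CPM in adults and 14.1 to 18.0 CPM in P10 islets. The imprint guardians *Zfp57* and *Zfp445* had no call among 3 ACSs. The start of *Zfp57* held 15.5, 14.1 and 17.5 CPM in adults and 12.5, 11.8 and 12.5 CPM in P10 islets, without overlap but short of the threshold (log2 fold change 0.35, standard error 0.21, edgeR adjusted p = 0.352). The Kid1 relatives *Zfp354a* and *Zfp354c* had no call among 4 ACSs. Over the start-site ACSs of 24 listed genes, *Zfp281* alone was called, beside 2.73% Up and 7.87% Down of all TSS ACSs. With column sums, 1 was Up and 5 Down, beside 1.78% Up and 17.2% Down of all TSS ACSs.

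KRAB proteins act through co-repressors that are no Zfp genes, and these were read alongside. Of 24 ACSs at *Trim28*, *Cbx3*, *Cbx5*, *Morc2*, *Morc3*, *Pphln1*, *Smarcad1* and *Uhrf1*, 1 was Up and 3 were Down (4.17% and 12.5%, beside 12.3% and 6.63% of all ACSs). The main start-site ACS of *Trim28*, the scaffold that KRAB domains bind, held 48.9, 39.3 and 45.8 CPM in adults and 58.7, 53.6 and 49.3 CPM in P10 islets. The adult libraries were all lower, yet the ACS was not called (log2 fold change -0.27, standard error 0.16, edgeR adjusted p = 0.351). A weaker *Trim28* ACS 881 bp upstream was called Down, with 7.59, 3.70 and 6.32 CPM against 10.6, 10.6 and 6.56 CPM (log2 fold change -0.65, standard error 0.28, edgeR adjusted p = 0.163). *Cbx3*, encoding the heterochromatin protein HP1 gamma, had the Up ACS near its 3′ end, at 20.6, 12.8 and 12.2 CPM in adults and 7.62, 6.13 and 5.23 CPM in P10 islets (log2 fold change 1.27, standard error 0.25, edgeR adjusted p = 0.00115). The adult libraries were higher there, whereas the *Cbx3* start held 36.0 to 43.4 CPM in adults and 42.7 to 47.4 CPM in P10 islets. Without any single library, 2 of the 4 calls were left, 1 Up and 1 Down.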

How the data were processed

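ATAC-seq libraries of 3 Adult and 3 P10 islet samples were analysed from the whole-number counts of Tn5 integrations that the authors deposited per ACS and library. Per the labels and the study's methods, the authors checked reads with FastQC 0.11.2, aligned them to Rn5 with BWA 0.7.13, discarded mitochondrial and poorly mapped reads with SAMtools 1.3, called peaks with MACS2 2.1.1 on the pooled samples of each age and counted integrations with pyDNase. Discarding poorly mapped reads lowers counts in near-identical zinc finger exons, so counts of duplicated genes are uncertain. Handling of PCR duplicates is not given in the sources used here. The columns of the authors' own test (fold changes, p-values and FDR) were not used. Their nearest gene was used as deposited.

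From 101941 entries, 101603 distinct ACSs were tested together with edgeR 4.0.16 in R 4.3.3 (glmQLFit and glmQLFTest, TMM, no filter, age as the only term, Benjamini-Hochberg adjustment over all ACSs). An ACS was called at p under 0.05 and FDR under 0.2. In simulated Adult against P10 counts over 101603 ACSs, 43% of 200 ACSs changed by 1 on the log2 scale were called and 27 unchanged ACSs were. In the data, 12504 ACSs were called Up and 6738 Down, so far more changed than in the simulation. The FDR limit depends on that number, so the simulated rates cannot be carried over to the data. Replicates differed by more than counting error (chi-square per degree of freedom 3.35 to 7.81). Values per library were compared by exact two-sided permutation tests, which cannot go below p = 0.1. Alternatives used DESeq2 1.42.0, limma 3.58.1, other library sizes, filters, limits and left-out libraries.

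The members and gene lists were chosen with earlier results of these data known. Named were the 6 Up and 6 Down ACSs with the smallest p among those without overlap, called TSS ACSs (up to 5 in each direction), genes with 3 or more calls or among the 3 with the most ACSs, and the TSS ACSs of listed genes. Other genes named (*Zfp53*, *Zfp799*, *Zfp148*'s weaker ACS, *Zfp455*, *Zfp52*, *Zfp36l1*'s proximal ACS, *Lzts1* and the ACSs nearest to *Zfp868*) were chosen after their values were seen. Promoters came from RefSeq (GRCr8), which had an entry for 133 of the 164 genes. Figures were drawn with matplotlib 3.10.9.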

Additional observations from a re-analysis of the deposited data

How the results depend on the processing

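Of the 193 Zfp ACSs called, 176 carried a symbol that ends in its number. Median-of-ratios size factors (199), the filterByExpr filter (199), the DESeq2 Wald test (172), limma voom (191) and a mean of at least 50 integrations (192) left the total within 1.5 times. The split between directions moved with scaling, from 67.4% of calls Up to 46.3% with column sums (107 Up, 124 Down) and 52.6% with the mean filter (101 Up, 91 Down). Over all ACSs the same settings moved it from 65% to 49.3% and 56.6%. With total reads as library sizes, the median of all ACSs was -0.841 on the log2 scale, and 781 Zfp ACSs were called (8 Up, 773 Down). Of these, 131 were at TSS, 70 proximal and 580 distal, and 19 further calls were at co-repressor genes. The members were thus 0.634% Up and 61.3% Down, near the 1.05% and 60.7% of all ACSs. At TSS, 92.3% of members were Down, against 90.2% of all TSS ACSs. The median of the members became -0.831 and that of TSS members -0.945, and *Zfp281* (-0.232), *Zfp167* (-0.337) and *Zfp189* (-0.471) turned negative. With column sums the median of the members was -0.095 and 26 TSS members were called, and with the mean filter 30 TSS members were. At FDR under 0.05, 87 Zfp ACSs were called, 2 at TSS, 7 proximal and 78 distal, and 1 at the co-repressor genes. At this limit 5.23% of members were Up and 1.66% Down, against 7.06% and 1.91% of all ACSs. Integrations in ACSs were fewer in adults (7916919 to 11903909) than at P10 (13491534 to 21168463), whereas total reads overlapped between the ages. Per read, adults thus had fewer integrations in ACSs, and total reads as library sizes carry this difference into the fold changes. The cause of that difference and of the other changes was not tested.

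When each library was left out, the calls ranged from 104 to 226 over all members, 1 to 13 at TSS, 8 to 21 proximal and 95 to 199 distal, and came to 2 at the co-repressor genes in each fit. Over all ACSs, the calls ranged from 11258 to 20447, and over all TSS ACSs from 482 to 1382. The lowest member total was without P10 replicate 2 (104) and the next without P10 replicate 3 (128). Without P10 replicate 2, 5.86% of members were Up and 2.38% Down, against 7.85% and 3.23% of all ACSs. Without P10 replicate 3, these shares were 6.89% and 3.25%, against 8.77% and 4.17%. TSS calls were 13 without adult replicate 4 and 10 without adult replicate 5, and proximal calls were 21 without P10 replicate 1. The member median lay between -0.0173 and 0.023 and the TSS median between -0.19 and -0.0438. Of the 18 ACSs named for their p, 13 kept their call in all 6 such fits. No paired analysis was possible because the ages share no replicate numbers. The median member ACS held 43 integrations in the shallowest library, and replicates differed by more than counting error, so both depth and the spread between libraries bear on precision.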

Other observations

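The strongest Zfp ACSs by level were steady with age. An ACS 48304 bp upstream of *Zfp583*, chr1:72589498-72590730, held 252, 226 and 239 CPM in adults and 239, 276 and 264 CPM in P10 islets (log2 fold change -0.12, standard error 0.13, edgeR adjusted p = 0.682). The next, 153743 bp upstream of *Zfp532* at chr18:60304532-60305460, held 133, 103 and 119 CPM in adults and 101, 113 and 114 CPM in P10 islets (log2 fold change 0.12, standard error 0.15, edgeR adjusted p = 0.717). Both ACSs overlapped between the ages. They were chosen after their values were seen.

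Zfp ACSs took 1.45% ± 0.012 (SD, n = 3) of the integrations of adult libraries and 1.48% ± 0.023 (SD, n = 3) of those of P10 libraries. All adult libraries were lower (two-sided exact permutation test, p = 0.1, which is the least 3 against 3 can give), and the difference stayed between -0.0397 and -0.0174 percentage points without any single library. Among integrations in TSS ACSs alone, Zfp genes took 1.44% ± 0.054 (SD, n = 3) in the Adult group. Their share was 1.46% ± 0.019 (SD, n = 3) at P10, and the groups overlapped (two-sided exact permutation test, p = 0.6). That difference ran from -0.0494 to 0.0039 percentage points without single libraries.

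By distance, distal Zfp ACSs within 100 kb of their gene had 57 Up and 29 Down of 491, those from 100 to 500 kb had 49 Up and 22 Down of 412, and those farther away had 9 Up and 8 Down of 112. The share of Up calls over all distal ACSs in these ranges was 14.0%, 14.0% and 11.5%, and that of Down calls was 6.65%, 6.27% and 5.97%.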
